A study of Mus musculus with 6 samples.

Results

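The 36 genes described here carry fatty acids into heart cells and through mitochondrial beta-oxidation, together with the regulators that drive them. They were chosen by function, with earlier results of these data known. Each was read from the probe set of highest mean among those annotated to that gene alone. Such a probe set was present for 34 of the 36, out of 18193 genes measured on the arrays. Of the 34, 33 passed the filter on dim probe sets and were tested among 13572 genes, and Ppara was too dim. Acsl1, the main activating enzyme of long chains in the heart, had no probe set under its name here, and the probe set of Cpt1b, the muscle isoform of carnitine palmitoyltransferase 1, names other genes too, so neither was measured.

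RNA of 6 mouse hearts of the strain given as C57B6 was hybridised to Affymetrix arrays, 3 hearts labelled wild type and 3 labelled EphB4 Mutant. EphB4 is a receptor of endothelial cells for the ligand ephrin-B2, and the series title asks about ephrin-B2 in the myocardium as the ventricular wall forms. The labels state neither the kind of mutation nor the age or sex of the animals, and each array was counted as 1 heart. A second label, the first letters of the descriptions, divides the hearts otherwise: wild-type 3 and mutant 3 carry eM, the other 4 carry eI, and the meaning of the letters is not stated. Values are log2 intensities, so a difference of 1 is a 2-fold change, and levels of different genes are not compared.

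Fatty acids reach heart muscle cells from circulating lipoproteins, cross the membrane with the help of carriers, and are bound to coenzyme A. Carnitine carries long chains across the mitochondrial membranes, and inside, a repeated cycle of dehydrogenation, hydration, oxidation and thiolysis shortens the chain and passes electrons to the respiratory chain. The adult heart draws most of its energy from this route, whereas the fetal heart leans on glucose and lactate. The nuclear receptors PPAR-alpha and estrogen-related receptor alpha, with the coactivators PGC-1alpha and PGC-1beta, switch on many of these genes.

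Ephb4 itself lay between 7.83 and 8.20 in the 6 hearts, with a genotype difference of 0.01, and its probe set need not lie in the mutated part. The Y-linked gene Eif2s3y was at 9.56 and 9.58 in mutant 1 and mutant 3 and at 3.79 or less in the other 4, so both male hearts were mutants. Markers of heart muscle were bright in every heart, with a mean over 16 genes between 13.14 and 13.33. Array controls differed by letter as well. The beta-actin signal at the 3′ end exceeded that at the 5′ end by 0.51 (wild-type 3) or 0.77 (mutant 3) in eM arrays and by 0.28 to 0.41 in eI arrays, and a probe set for 18S rRNA gave 12.34 and 11.62 against 9.75 to 10.42. Their part in the differences given next was not tested.

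Fatty acid genes were lower in the eM hearts than in the eI hearts at nearly every step of the pathway. In limma with genotype as a term, 22 of the 33 tested genes passed an adjusted p of 0.05 (all genes, 10.3%). Of these, 21 fell by 1.32 to 2.19-fold (adjusted p from 0.0163 to 0.0482; all genes, 5.82%) and 1, Ppargc1b, rose (all genes, 4.47%). The median difference was -0.50 on the log2 scale, against -0.03 over all genes tested, and 30 of the 33 were below 0 (all genes, 55.2%). At 16 of the 33 the eM hearts were lower by at least 0.5 (all genes, 6.37%), and at 1 higher by as much (all genes, 4.22%). Both eM hearts lay below every eI heart at 26 of the 33 (all genes, 23.8%). The same held at 20 of 25 oxidative phosphorylation genes and 13 of 17 citric acid cycle genes. With 2 eM hearts against 4, a two-sided exact permutation test of a single gene cannot go below 0.0667, the value reached by each of these 26. In heart tissue, fewer cells of a type and less RNA per cell cannot be told apart.

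The number of genes called depended on single hearts. Without wild-type 1 or wild-type 2, limma called 22 and 21 of these genes lower, and without wild-type 3 it called 13. Without mutant 1 it called 1, and without mutant 2 or mutant 3 it called 0. Among all genes, leaving out mutant 1, mutant 2 and mutant 3 in turn left 158, 2 and 0 called in either direction. Without wild-type 3 or mutant 3 the eM arm is 1 heart, assumed to vary like the others, and the differences are those of 1 genotype. The median difference was between -0.53 and -0.48 when an eI heart was left out, -0.61 without wild-type 3 and -0.37 without mutant 3. With the level of Xist, which marks the female hearts, as an added term, limma called 2 of the 33 lower and 0 higher. The median difference in that fit was -0.48.

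**Figure D1:**
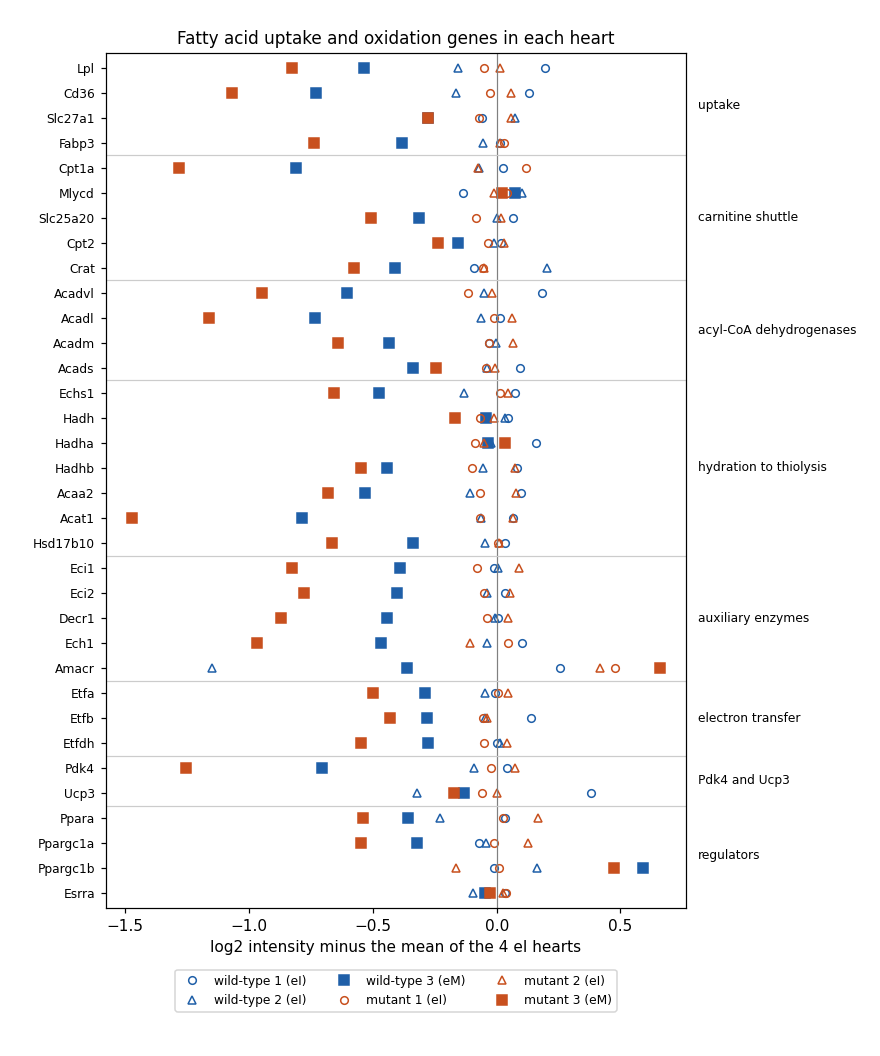
Each point is the log2 intensity of a gene in 1 heart minus the mean of the 4 eI hearts, for the 34 measured genes grouped by pathway step; filled squares are the eM hearts, open symbols the eI hearts, blue wild-type and orange mutant. Both squares lie to the left of all open symbols at 26 of the 33 tested genes, and for Ppargc1b they lie to the right.

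Of the 4 uptake genes, 3 fell. Below, values in eI hearts are given in the order wild-type 1, wild-type 2, mutant 1 and mutant 2, those in eM hearts in the order wild-type 3 and mutant 3, and each difference with its SE and limma adjusted p. Lpl, the lipase that frees fatty acids from circulating triglycerides, was at 12.94, 12.59, 12.69 and 12.76 in eI and at 12.21 and 11.92 in eM hearts, a difference of -0.68 ± 0.13 (adjusted p = 0.0301). Cd36, the main fatty acid carrier of the muscle cell surface, was at 9.33, 9.04, 9.17 and 9.26 against 8.47 and 8.13, or -0.90 ± 0.13 (adjusted p = 0.0188). For both genes the higher of the eM hearts stayed below the lowest eI heart. Fabp3, the heart's fatty acid binding protein, differed by -0.56 ± 0.11 (adjusted p = 0.0348), with 12.36 in wild-type 3 and a lower value still in mutant 3, against 12.68 to 12.77 in eI hearts. Slc27a1, a transporter that also activates fatty acids, did not pass at -0.28 ± 0.09 (adjusted p = 0.0957), though its eM hearts, both at 6.37, lay under the eI hearts at 6.57 to 6.72.

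Of the 5 measured genes of the carnitine shuttle, 3 fell. Cpt1a, the isoform of carnitine palmitoyltransferase 1 best known from liver, was at 8.70, 8.60, 8.79 and 8.60 in eI and at 7.86 and 7.39 in eM hearts. That is a difference of -1.05 ± 0.14, or 2.07-fold lower (adjusted p = 0.0165), and the groups did not overlap. Slc25a20, the carrier that exchanges acylcarnitine for carnitine, fell with a difference of -0.41 ± 0.08, and Crat, which makes acetylcarnitine, with one of -0.49 ± 0.10. Cpt2, which returns acyl groups to coenzyme A inside the mitochondrion, did not pass at -0.20 ± 0.08 (95% confidence interval -0.39 to -0.01). Mlycd removes malonyl-CoA, the inhibitor of the shuttle's entry step, and was at 7.92, 8.16, 8.10 and 8.04 against 8.13 and 8.07. Its difference was 0.05 ± 0.10 (interval -0.19 to 0.28), and its groups overlapped.

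The acyl-CoA dehydrogenases start each round of the cycle and differ in the chain length they prefer, and 3 of 4 fell. Acadl, for long chains, was at 12.33, 12.25, 12.30 and 12.37 in eI and at 11.58 and 11.15 in eM hearts, a difference of -0.95 ± 0.12 (adjusted p = 0.0163). Acadvl, for very long chains, was at 10.87, 10.63, 10.57 and 10.67 against 10.08 and 9.73, or -0.78 ± 0.11 (adjusted p = 0.0173). These were 1.93 and 1.71-fold lower, with both eM hearts below every eI heart. Acadm, for medium chains, differed by -0.54 ± 0.09 (adjusted p = 0.0256), with 11.73 and 11.52 in eM against 12.13 to 12.23 in eI hearts. Acads, for short chains, did not pass at -0.29 ± 0.09 (adjusted p = 0.0843, interval -0.51 to -0.08). Differences between these 4 genes were not tested.

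Promoters of the genes were searched for the binding letters of the receptors named above. RefSeq windows of 300 bases, 250 before to 50 after the start of transcription, were matched by symbol for 28 of the 36 genes (31 windows, build GRCm38.p6). The nuclear receptor half-site AGGTCA, sought on both strands, was in 6 of the 31 windows, or 19.4%, and in 16.3% of all 32851 windows. Among the 16 genes that fell and had a window, 5 held it: Cd36, Cpt1a, Acadvl, Acadm and Echs1. The direct repeat AGGTCANAGGTCA and the longer element TCAAGGTCA, both of which contain the half-site, were in 0 of the 31 windows and in 0.04% and 0.423% of all windows. The windows of the 3 genes of these 5 that differed most are printed, so that the letters can be seen beside the values above. Capitals mark the half-site or its reverse complement, TGACCT.
Cpt1a (chr19:3323051-3323350, plus strand): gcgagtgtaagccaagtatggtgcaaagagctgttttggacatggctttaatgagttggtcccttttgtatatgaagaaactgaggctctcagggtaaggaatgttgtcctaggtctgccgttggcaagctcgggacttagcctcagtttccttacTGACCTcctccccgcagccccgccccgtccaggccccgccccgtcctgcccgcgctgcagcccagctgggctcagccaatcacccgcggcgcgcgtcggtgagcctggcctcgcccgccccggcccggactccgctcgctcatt
Cd36 (chr5:17835847-17836146, minus strand): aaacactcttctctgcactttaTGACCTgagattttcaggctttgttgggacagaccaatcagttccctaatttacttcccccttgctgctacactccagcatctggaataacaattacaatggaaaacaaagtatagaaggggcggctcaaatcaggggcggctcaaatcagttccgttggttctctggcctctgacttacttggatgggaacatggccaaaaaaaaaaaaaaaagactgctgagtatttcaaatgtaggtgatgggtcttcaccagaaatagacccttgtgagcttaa
Acadvl (chr11:70015379-70015678, minus strand): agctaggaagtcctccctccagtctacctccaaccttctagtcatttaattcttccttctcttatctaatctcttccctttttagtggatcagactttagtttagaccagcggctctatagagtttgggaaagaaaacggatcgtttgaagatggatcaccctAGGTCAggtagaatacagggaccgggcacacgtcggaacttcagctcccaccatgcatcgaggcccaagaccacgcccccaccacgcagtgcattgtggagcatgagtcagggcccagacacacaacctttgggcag
The capitals begin 94 bases before the start of transcription in Cpt1a, 228 before it in Cd36 and 87 before it in Acadvl. The share of the 31 windows with the half-site was near that of all windows. The 5 of 16 among the genes that fell is a higher share, which rests on few genes and was not tested. A match shows letters, not binding.

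From hydration to thiolysis, the later steps of the cycle, 5 of 7 genes fell. Acat1, the mitochondrial thiolase of short chains and ketone bodies, was at 12.12, 11.99, 11.99 and 12.12 in eI and at 11.27 and 10.58 in eM hearts. Its difference of -1.13 ± 0.16 (adjusted p = 0.0188), or 2.19-fold, had the greatest size among the 33 genes. Mutant 3 lay well below wild-type 3, and both lay below all eI hearts. Acaa2, the thiolase of longer chains, differed by -0.61 ± 0.10, the hydratase Echs1 by -0.57 ± 0.10 and the dehydrogenase Hsd17b10 by -0.50 ± 0.10.

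The subunits of the mitochondrial trifunctional protein, an inner-membrane enzyme for long chains, gave unlike values. Hadhb, the beta subunit with thiolase activity, was at 12.56, 12.43, 12.38 and 12.55 against 12.04 and 11.93, or -0.50 ± 0.09 (adjusted p = 0.0307). Hadha, the alpha subunit, was at 10.33, 10.15, 10.09 and 10.12 against 10.14 and 10.21, or 0.00 ± 0.10 (interval -0.24 to 0.23). The groups of Hadha overlapped and those of Hadhb did not, but the difference between the subunits was not tested. A dimmer probe set of Hadhb, of the kind that may share probes with other transcripts, gave 0.03, so the fall of Hadhb holds for 1 of its 2 tested probe sets. Hadh, the short-chain hydroxyacyl dehydrogenase, did not pass at -0.11 ± 0.08, read from a probe set of that same kind. The other tested probe set of Hadh, not of that kind, gave -0.35 and did not pass either.

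Of the 5 enzymes that handle double bonds and branches, 4 fell. Decr1, which reduces the extra double bonds of polyunsaturated chains, was at 10.81, 10.80, 10.77 and 10.85 in eI and at 10.37 and 9.94 in eM hearts, or -0.66 ± 0.12 (adjusted p = 0.0272). Ech1, an isomerase of the same route, differed by -0.72 ± 0.13, and the isomerases Eci1 and Eci2, which move a double bond into place, by -0.61 ± 0.12 and -0.59 ± 0.11. At these 4 genes both eM hearts lay below every eI heart. Amacr, a racemase that prepares branched chains, differed by 0.15 with a wide interval of -0.72 to 1.01.

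Electron transfer from the dehydrogenases to the respiratory chain showed smaller differences. Etfa and Etfb, the subunits of the electron-transferring flavoprotein, differed by -0.40 ± 0.09 (adjusted p = 0.0482) and -0.36 ± 0.09 (adjusted p = 0.0555), so the first passed and the second did not. Etfdh, the dehydrogenase that hands the electrons to ubiquinone, differed by -0.41 ± 0.09 (adjusted p = 0.0456). All 3 had both eM hearts below every eI heart.

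Pdk4, the kinase that shuts off pyruvate dehydrogenase when fatty acids are burned, was 1.97-fold lower in eM hearts. It was at 9.25, 9.11, 9.18 and 9.28 in eI and at 8.50 and 7.95 in eM hearts, a difference of -0.98 ± 0.15 (limma adjusted p = 0.0207). Ucp3, a mitochondrial carrier that follows fatty acid supply in muscle, was dim and its groups overlapped, at 6.09 to 6.79 in eI and 6.28 and 6.24 in eM hearts (-0.15 ± 0.19).

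The regulators did not share one direction. Ppargc1b, which encodes PGC-1beta, was at 9.21, 9.39, 9.23 and 9.06 in eI and at 9.81 and 9.70 in eM hearts, a rise of 0.53 ± 0.10 (limma adjusted p = 0.0285). Both eM hearts lay above every eI heart, which occurred at 1 of the 33 genes (all genes, 20.8%). Ppargc1a, which encodes PGC-1alpha, was read from a probe set of the kind that may share probes with other transcripts. There it did not pass, with -0.43 ± 0.11 (adjusted p = 0.0546). Its other probe sets gave -0.62, -0.23, 0.13 and 0.15, of which the first passed over all probe sets (limma adjusted p = 0.0196), so its direction rests on the probe set. Esrra, the gene of estrogen-related receptor alpha, differed by -0.04 ± 0.08 (interval -0.23 to 0.16). Ppara, which encodes PPAR-alpha, was at 5.17, 4.91, 5.16 and 5.30 in eI and at 4.78 and 4.60 in eM hearts, all in the range the filter leaves out. Tested with no filter, Ppara differed by -0.45 (limma adjusted p = 0.106).

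**Figure D2:**
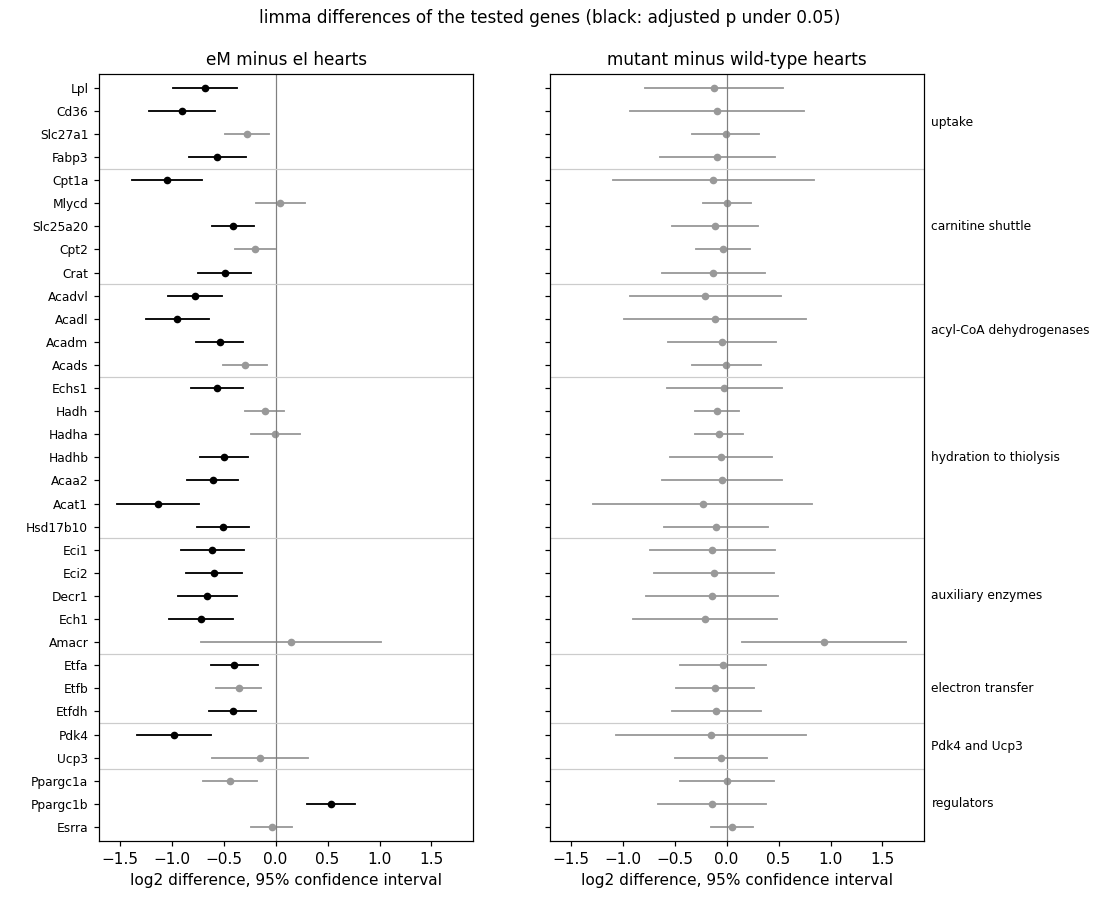
Differences of the 33 tested genes on the log2 scale with 95% confidence intervals from limma, eM minus eI hearts on the left and mutant minus wild-type hearts on the right; black marks an adjusted p under 0.05. On the left, 21 genes are black below 0 and Ppargc1b is black above 0, and on the right 0 are black.

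Other probe sets of these genes mostly ran the same way. A further 23 probe sets of 16 of the genes passed the filter, of which 19 were below 0 in eM minus eI (all probe sets, 51.2%), 10 fell (4.94%) and 0 rose (6.75%). Those of Cd36 gave -1.18 and -0.53, that of Lpl -0.90, those of Acaa2 -0.74 and -1.47, and those of Acat1 -0.90 and -0.96. The second tested probe set of Cpt1a, of the kind that may share probes with other transcripts, gave -1.15. For Fabp3, Decr1 and Crat the dimmest tested probe set gave a smaller difference, with -0.02, -0.21 and -0.19. The second probe set of Hsd17b10, of the kind that may share probes too, gave -0.30 and did not pass (limma adjusted p = 0.285).

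No difference between mutant and wild-type hearts passed the test at these genes. In limma 0 of the 33 passed, as did 0% of all genes, and 1 of the 33 had an unadjusted p under 0.05 (all genes, 0.936%). The 3 wild-type hearts averaged 8.39 ± 0.46 (SD) for Cpt1a, while the 3 mutant hearts averaged 8.26 ± 0.76, a difference of -0.13 with an interval of -1.10 to 0.84. For Cd36 the difference was -0.09 (interval -0.93 to 0.75), for Acadl -0.11 (-0.99 to 0.77) and for Acat1 -0.23 (-1.28 to 0.82). Hadha and Mlycd had narrower intervals, -0.30 to 0.16 and -0.23 to 0.24. The wider intervals hold 0 as well as changes near 2-fold, but that fit has no term for the letters, whose difference widens them. With the letters as a term, the interval was -0.44 to 0.19 for Cpt1a and -0.39 to 0.21 for Cd36. For Acadl it was then -0.40 to 0.17 and for Acat1 -0.60 to 0.14.

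The median difference between genotypes was -0.10, with 29 of 33 genes below 0 (all genes, 48.9%). Within the eI hearts the median was 0.00 and 16 of 33 genes were below 0 (all genes, 47.1%), while mutant 3 was below wild-type 3 at 29 of 33 (all genes, 51.4%), with a median of -0.20. With array weights the median of the mutant minus wild-type differences was 0.09. It was 0.12 without mutant 3 and -0.21 without wild-type 3, fits in which 1 genotype has no eM heart, and 0.00 without wild-type 1, so it has no settled sign. With the letters as a term, limma again called 0 of the 33, and 1 had an unadjusted p under 0.05 (all genes, 3.07%).

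Amacr was the gene with that unadjusted p. It was at 7.24, 5.84 and 6.62 in wild-type and at 7.46, 7.41 and 7.65 in mutant hearts 1 to 3, so that every mutant heart lay above every wild-type heart. At the probe sets used, groups that do not overlap occurred at 1 of the 33 genes and at 4.39% of all genes. The difference was 0.94 ± 0.33 (SE), or 1.92-fold (limma adjusted p = 0.9997, two-sided exact permutation p = 0.1, the smallest that 3 against 3 allows). It was 0.90 within the eI and 1.02 within the eM hearts. Wild-type 1 and wild-type 2 lay farther apart from each other than the wild-type mean lay from the mutant mean, and without wild-type 2 the difference was 0.57. A dimmer probe set of Ppargc1a separated the genotypes too, at 8.16, 8.48 and 8.37 in wild-type and 7.70, 7.74 and 7.98 in mutant hearts. There the difference was -0.53 (limma adjusted p over all probe sets = 0.9999), against 0.00 at the probe set used for Ppargc1a.

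Both genotypes had lower values in the eM heart, and the mutant pair more so. Set against the eI hearts of its own genotype, wild-type 3 had a median of -0.37 over the 33 genes and mutant 3 one of -0.61. The mutant value was the lower at all 21 genes that fell (all genes tested, 52.7%). The share among all genes that fell in eM hearts was not counted, and each value rests on 1 eM heart. By the sex genes wild-type 3 was female and mutant 3 male, so within eM genotype and sex cannot be told apart. Acat1 differed by -0.79 and -1.47 in wild-type and mutant hearts, Cpt1a by -0.79 and -1.31, Pdk4 by -0.68 and -1.28, and Acadl by -0.71 and -1.19. For Hadhb (-0.46 and -0.53), Crat (-0.46 and -0.52) and Ppargc1b (0.51 and 0.55) the values of the genotypes lay close together.

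The difference between the genotypes in this respect passed the threshold at 0 of the 33 genes. An interaction term in limma called 0% of all genes too, and the smallest adjusted p among the 33 was 0.68. The term was below 0 at 27 of 33 (all genes, 52.7%), with an unadjusted p under 0.05 at 6 of 33 (all genes, 7.12%). Since eM has 1 heart per genotype, the spread in that test comes from the eI hearts alone. Mutant 3 was the lowest heart at 26 of the 33 genes (all genes, 28.6%). It was also the lowest at 23 of 25 oxidative phosphorylation genes and 10 of 17 citric acid cycle genes. Mutant 3 had the larger beta-actin difference of the eM hearts too, whose part in this was not tested.

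**Figure D3:**
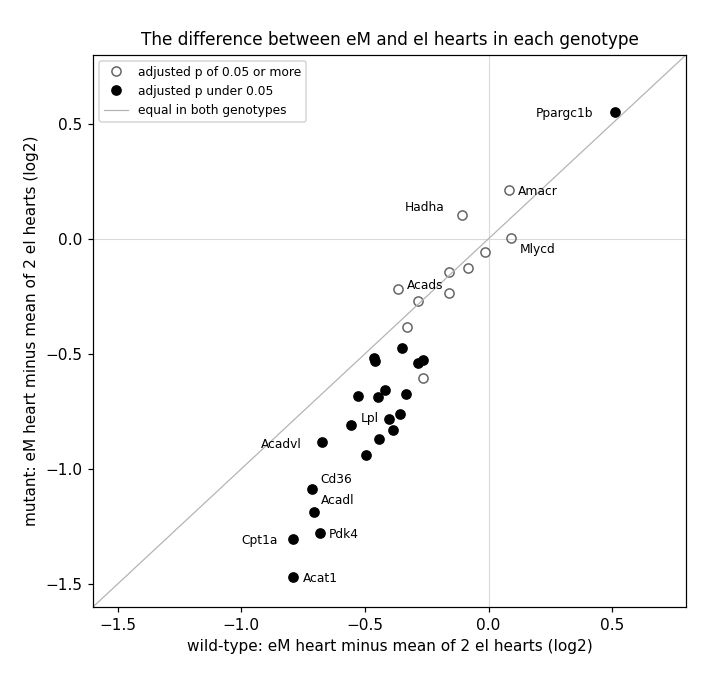
Each point is 1 of the 33 tested genes, with the log2 difference of the eM heart from the mean of the 2 eI hearts in wild-type on the horizontal and in mutant on the vertical axis; filled points had an adjusted p under 0.05 for eM minus eI. The 21 filled points below 0 all lie under the line of equal values, down to -0.79 and -1.47 for Acat1. Among all genes tested, the mutant difference was the lower at 52.7%.

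Among the other genes of mitochondrial fatty acid and branched-chain breakdown, 7 of 21 tested fell in eM hearts and 0 rose, with a median of -0.28. They included Acot2, which frees fatty acids from coenzyme A (-0.55 ± 0.10), and Pccb, a subunit of propionyl-CoA carboxylase (-0.49 ± 0.09). Echdc3 differed by -0.56 and Acad8, of valine breakdown, by -0.44. In the peroxisomal route 1 of 12 tested genes fell, Phyh (-0.89 ± 0.15), which starts the breakdown of phytanic acid, and the median was -0.25. That share, 8.33%, was near the 5.82% of all genes. Of 14 other genes of entry and activation 2 fell and 0 rose: Vldlr, a receptor for triglyceride-rich lipoproteins (-1.19 ± 0.20), and Fabp4, a binding protein of fat, endothelial cells and macrophages. Fabp4 was at 6.17 to 7.43 in eI hearts and at 5.04 and 4.59 in eM hearts, both under the filter level of 5.38, so the size of its fall is uncertain. The 33 tested fatty acid genes lay above that level in every heart.

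Of 21 tested genes of fatty acid synthesis and lipid stores, 4 rose and 1 fell in eM hearts (all genes, 4.47% and 5.82%), with a median of 0.02. Fasn, the fatty acid synthase, differed by 0.93 ± 0.09 (limma adjusted p = 0.0131) and Scd1, the desaturase of its products, by 1.19 ± 0.13 (adjusted p = 0.0134). Elovl6, which lengthens chains, rose by 0.58 ± 0.08, and Acaca, which makes malonyl-CoA, by 0.47 ± 0.10. Plin2, a coat protein of lipid droplets, fell by 0.41 on the log2 scale. Among 20 other regulators and targets 2 fell, a share of 10% against 5.82% of all genes, and 0 rose: Angptl4 (-0.56 ± 0.09), an inhibitor of Lpl, and Sirt3 (-0.59 ± 0.09), a mitochondrial deacetylase.

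In energy metabolism outside fatty acids the medians lay nearer to 0. Of 25 oxidative phosphorylation genes 4 fell and 0 rose (median -0.21), among them Ndufs1 (-0.46 ± 0.08) and Cox8b, a subunit isoform of heart and skeletal muscle (-1.61 ± 0.30). Of 17 citric acid cycle genes 4 fell and 0 rose (median -0.24), such as Idh2 (-0.75 ± 0.10). Among 17 glycolysis genes 3 fell and 2 rose (median -0.10). Aldoc, Eno3 and Ldhb fell by 0.70, 0.46 and 0.60 on the log2 scale, while Pkm (0.46 ± 0.11) and the glucose transporter Slc2a1 (0.53 ± 0.12) rose. The shares that fell were 63.6% for fatty acid uptake and oxidation, 23.5% for the citric acid cycle, 17.6% for glycolysis and 16% for oxidative phosphorylation. Over all genes, 5.82% fell and 4.47% rose. The direction was shared more widely than the calls. Below 0 in eM minus eI were 23 of 25 oxidative phosphorylation, 16 of 17 citric acid cycle and 9 of 17 glycolysis genes. Among the fatty acid genes it was 30 of 33, and among all genes 55.2%. No test was made between the lists. None of these lists had a gene that passed between the genotypes, where 0% of all genes passed.

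**Figure D4:**
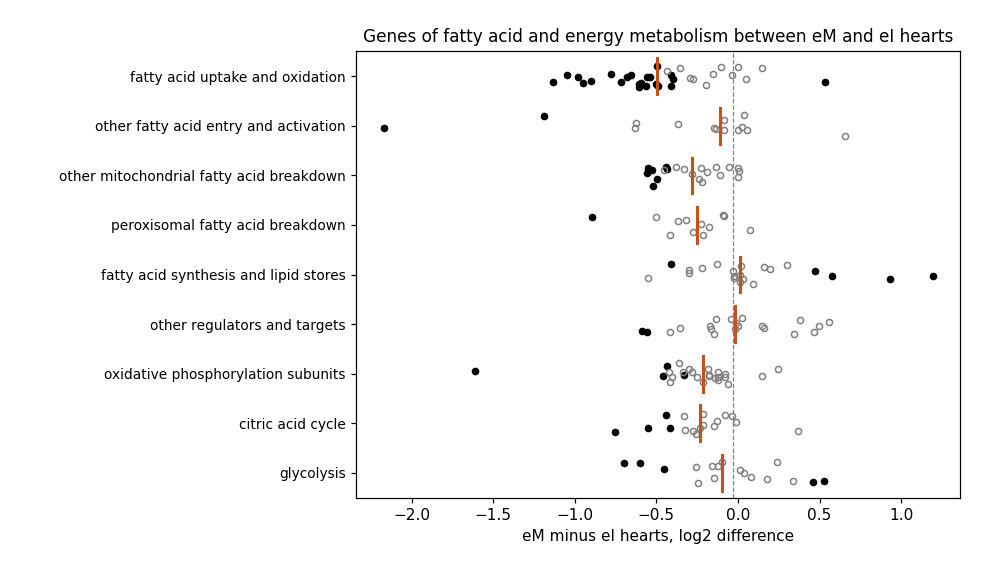
Each point is a tested gene with its eM minus eI difference on the log2 scale, by list; filled points had a limma adjusted p under 0.05, orange bars are list medians, and the dashed line is the median of all genes tested at -0.03. Fatty acid uptake and oxidation has a median of -0.50, and the filled points farthest right, among the genes of synthesis, are Fasn and Scd1.

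Markers of several cell types differed by letter too, and their levels stand here beside the fatty acid genes. Over all genes, 5.82% were lower and 4.47% higher in eM hearts. Heart muscle markers had 2 of 16 lower and 2 higher, with a median of -0.05 and list means of 13.28 and 13.14 in eM against 13.30 to 13.33 in eI hearts. Ryr2 and Myh6 rose by 0.76 and 0.67 on the log2 scale, and Casq2 and Pln fell by 1.88 and 0.75. Macrophage and leukocyte markers had 4 of 8 lower, with list means of 6.17 and 6.07 against 6.91 to 7.33, and erythroid markers 5 of 7, with 9.06 and 9.04 against 9.68 to 10.49. Endothelial markers had 3 of 10 lower (9.46 and 9.40 against 9.61 to 9.73), and those of fibroblasts and mesenchyme 2 lower and 1 higher of 10 (10.46 and 9.71 against 10.67 to 11.12).

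Liver and endoderm markers had 1 of 6 lower, against 5.82% of all genes (list means 5.61 and 5.29 against 6.67 to 8.38). That gene, Afp, was at 3.81 and 3.03 in eM hearts, under the filter level of 5.38, against 7.77 to 11.83 in eI hearts, so the size of its fall is uncertain. Epicardial markers had 3 of 10 higher and 1 lower, against 4.47% and 5.82% of all genes (8.81 and 8.87 against 8.32 to 8.78). The lower one, Msln, and the macrophage genes C1qb and Mrc1 were likewise under that level in both eM hearts. Among 6 tested skeletal muscle markers 2 fell and 1 rose (8.59 and 8.57 against 8.65 to 8.78), the defining Myf5, Myf6 and Myog were too dim to test, and Myod1, with a mean at the filter level, differed by -0.12 (limma adjusted p = 0.574). Of 3 tested fat markers 1 fell, Fabp4, with Adipoq and Lep too dim to test. The means of the 3 were 5.71 and 5.46 in eM against 6.22 to 6.74 in eI hearts. Fabp4 itself was at 5.04 and 4.59 in eM hearts, under the filter level. The part of other cell types in the fatty acid differences was not tested.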

How the data were processed

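The deposited values are log2 intensities per probe set, made by the authors with RMA according to the submitters' processing notes; the version is not given there. RMA brings arrays close to one distribution, so a shift common to all genes cannot be seen. Medians of the deposited arrays still ran from 5.89 in wild-type 2 to 6.01 in wild-type 1. Limma called 790 genes lower in eM hearts as deposited, 974 after quantile normalization and 614 with each array centred on its median. Of the fatty acid genes it called 21, 22 and 18 lower. Depth does not apply to arrays, and the number of hearts limits the precision.

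Of 45101 probe sets, 64 controls were left out. The platform annotation names 1 gene for 34945 of the rest, several for 932 and none for 9160; 34741 had a gene ID in the RefSeq table of GRCm38.p6, and 0 symbols changed. The lowest 40% of probe sets by mean (5.38 or less) were left out. Genotypes came from titles, letters from descriptions. limma 3.58.1 in R 4.3.3 (lmFit, eBayes, two-sided, Benjamini-Hochberg over 13572 genes, threshold 0.05) compared mutant with wild-type hearts, eM with eI hearts with genotype as a term, and their interaction. The fit was tested on data simulated with independent noise for each gene and, for genotype, no difference by letter. That checks the direction and size of planted differences, not the error rates in these hearts. Nothing says how the hearts were obtained beyond 6 mice, so p-values measure the spread between these samples. Figures used matplotlib 3.10.9.

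All 36 genes could be named, the genes that check labels and sex, and from every other list up to 4 genes of smallest p for the letters and up to 2 for genotype. Acaca, Slc2a1, Myod1 and the dim markers fall outside this rule and were chosen after their values were seen. The members and lists were chosen with earlier results of these data known. Hearts with the same number in their titles deviated from their group means together (r = 0.177, 0.304 and 0.704 across genes, which are not independent), which meets the rule used to treat numbers as pairs. Wild-type 1 with mutant 2 (r = 0.463) and wild-type 2 with mutant 1 (r = 0.435) correlated more than the same-numbered eI hearts, and the third pair is the eM pair, so the values do not show pairing by number apart from the letters. Alternatives varied the filter, normalization, variance model, probe set, threshold, covariates and hearts.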

Additional observations from a re-analysis of the deposited data

Results flagged for a closer look

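Within the 4 eI hearts, 4 of the 34 measured genes had 1 heart far from the rest, judged by its gap to the nearest heart over the whole range. That is 11.8%, against 6.85% of the 18193 genes measured, and chance gives about 1 such gene in 20. Amacr was low in wild-type 2, at 5.84 against 7.24 to 7.46 (ratio 0.863). Crat was high in wild-type 2, at 8.93 against 8.64 to 8.67 (ratio 0.867). Etfb was high in wild-type 1, at 12.31 against 12.12 to 12.13 (ratio 0.931). Esrra was low in wild-type 2, at 8.69 against 8.81 to 8.82 (ratio 0.90).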

How the results depend on the processing

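For eM minus eI, all genes called numbered 878 with no filter (501 lower, 377 higher), 2745 at an adjusted p of 0.10 (1527 lower, 1218 higher), 2 at 0.01 (0 lower, 2 higher) and 183 with the Xist level as an added term (89 lower, 94 higher). At 0.01, 0 fatty acid genes were called, 0 lower and 0 higher, and with Xist 2 were, 2 lower and 0 higher. The median of the fatty acid genes was -0.48 with the Xist level as a term and -0.40 with the mean of a gene's probe sets. It was -0.37 in wild-type hearts alone and -0.61 in mutant hearts alone. Leaving out each heart in turn gave 0 to 1937 genes called (0 to 1140 lower, 0 to 820 higher), 0 to 23 fatty acid genes (0 to 22 lower, 0 to 1 higher) and a median of -0.61 to -0.37. Without either eM heart in turn, that arm is 1 heart and its spread is taken from the others. Hadhb turned to 0.0273 with the probe set of largest variance; the other 20 genes that fell stayed below 0 in every alternative run. The causes were not tested.

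For mutant minus wild type, 0 to 2 genes were called when each heart was left out (2 without mutant 2), and the median of the fatty acid genes was -0.21 to 0.12. With the replicate block 0 genes were called, and it changed no other call. A replicate block could not be fitted for eM minus eI, since both eM hearts are number 3. The interaction called 0 genes in its alternatives. For the 22 fatty acid genes called in eM minus eI, 261 of 396 single-gene fits kept the call and 135 did not: 60 of 264 under other settings and 75 of 132 with a heart left out.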
